A study of Homo sapiens and Rattus norvegicus with 26 samples.

Results

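Transcription factors of the ETS family and of the SOX-F subfamily were followed in 4 models of brain or naive endothelium under flow. The rule was a list of names. It held the ETS genes *ETS1*, *ETS2*, *ERG*, *FLI1*, *ELK3*, *ETV2* and *ETV6* and the SOX-F genes *SOX7*, *SOX17* and *SOX18*. All 10 were found among 43382 human genes with counts, and all 10 rat counterparts among 33289 rat genes, matched by upper-cased symbol. The study grew cells on microfluidic chips for 72 h at 12 dyne/cm2 (high shear) or, per the labels, 0.1 dyne/cm2 (low shear), a low value that the study's methods put somewhat higher, and sequenced polyA-selected RNA of 26 cultures. hBMEC-like cells are brain endothelial-like cells made from human induced pluripotent stem cells (iPSCs) with retinoic acid and FGF2, and they are known for epithelial traits. rBMECs were grown out of brain microvessels of male Sprague–Dawley rats and purified with puromycin, and brains could be pooled as 1 isolation. hCECs came from CD34- or CD31-selected endothelial progenitors grown with FGF2, VEGF and CHIR99021, a GSK3 inhibitor that activates Wnt signaling and stayed in the chip medium. hECs came from the same kind of progenitors with DMSO in place of the inhibitor. Each human model had 3 high-shear and 3 low-shear libraries from separate differentiations of a single iPSC line, and rBMECs had 4 of each. The study's text counts fewer rat isolations than these 4 pairs, so some rBMEC libraries may share an isolation. Medium, species and cell type cannot be told apart between models.

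ETS factors bind DNA through a winged helix domain that recognizes a GGAA core, and many endothelial enhancers and promoters hold such cores. *ETV2* starts the endothelial program in the embryo and is then shut off, and *ERG* and *FLI1* keep that program running in mature vessels. *ETS1* acts in angiogenesis, *ETS2* is a target and effector of Ras and MAP kinase signaling, *ELK3* is a serum response factor partner that can repress genes until it is phosphorylated, and *ETV6* is a repressor needed in blood cells. SOX-F factors bind through an HMG box and act in overlapping ways in arterial and lymphatic specification, and *SOX17* is known for a role in Wnt-driven blood–brain barrier differentiation in mice.

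The libraries held 26297516 to 38604498 counted reads in hBMEC-like cells, 25727387 to 38166280 in rBMECs, 9790999 to 32225360 in hCECs and 25269733 to 47006272 in hECs. Rat and human tables were scaled separately, so levels in rBMECs are set beside the others without a test. The hCEC low-shear replicate 2 stood apart. It had the 9790999 reads, its 12 endothelial markers summed to 12280 CPM (counts scaled to a common library size) against 16119 to 17475 in the other hCEC libraries, and 10 of 10 epithelial and 8 of 8 neural markers reached 1 CPM in it, against at most 4 and 3 in the others. Its epithelial sum was 132 CPM, against 49.1 to 91.1 CPM in the others. Its neural sum was not raised, at 165 CPM against 161 to 308 CPM. The rBMEC high-shear replicate 1 had an endothelial marker sum of 10365 CPM, against 15135 to 21110 in the other rBMEC libraries, and the markers of smooth muscle cells, pericytes and fibroblasts summed to 907 CPM there and 819 CPM in low-shear replicate 1, against 200 to 329 CPM in the others. Member values with shear are also given without these pairs of cultures. Endothelial markers were present in hCECs, rBMECs and hECs, whereas in hBMEC-like cells they summed to 77.3 to 87.8 CPM at high shear and 88.2 to 101 CPM at low shear. *PECAM1* and *CLDN5* stayed under 0.3 CPM in all 6 hBMEC-like libraries. In the same libraries *CDH5* was at 29.3 to 45.2 CPM and *EGFL7* at 8.63 to 12.5 CPM, and 5 to 7 of the 12 endothelial markers reached 1 CPM. The 10 epithelial markers summed to 9413 CPM or more in hBMEC-like cells.

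*ERG* and *SOX18*, both abundant in every endothelial model, were all but missing in hBMEC-like cells. *ERG* had 0, 0 and 7 reads in the hBMEC-like high-shear libraries and 1, 0 and 0 in the low-shear libraries. *SOX18* had 0, 0 and 3 reads at high and 3, 1 and 0 at low shear. The 7 *ERG* reads at high shear correspond to 0.0729 CPM (95% exact Poisson interval 0.0293 to 0.150), against a mean of 333 CPM in hECs at high shear, a ratio of 2216 to 11356 by that interval. The 4 *SOX18* reads at low shear correspond to 0.0391 CPM (0.0107 to 0.100), against 463 CPM in hECs. Such intervals cover counting error only. In bulk RNA, fewer cells of a type and less RNA per cell cannot be told apart.

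**Figure D1:**
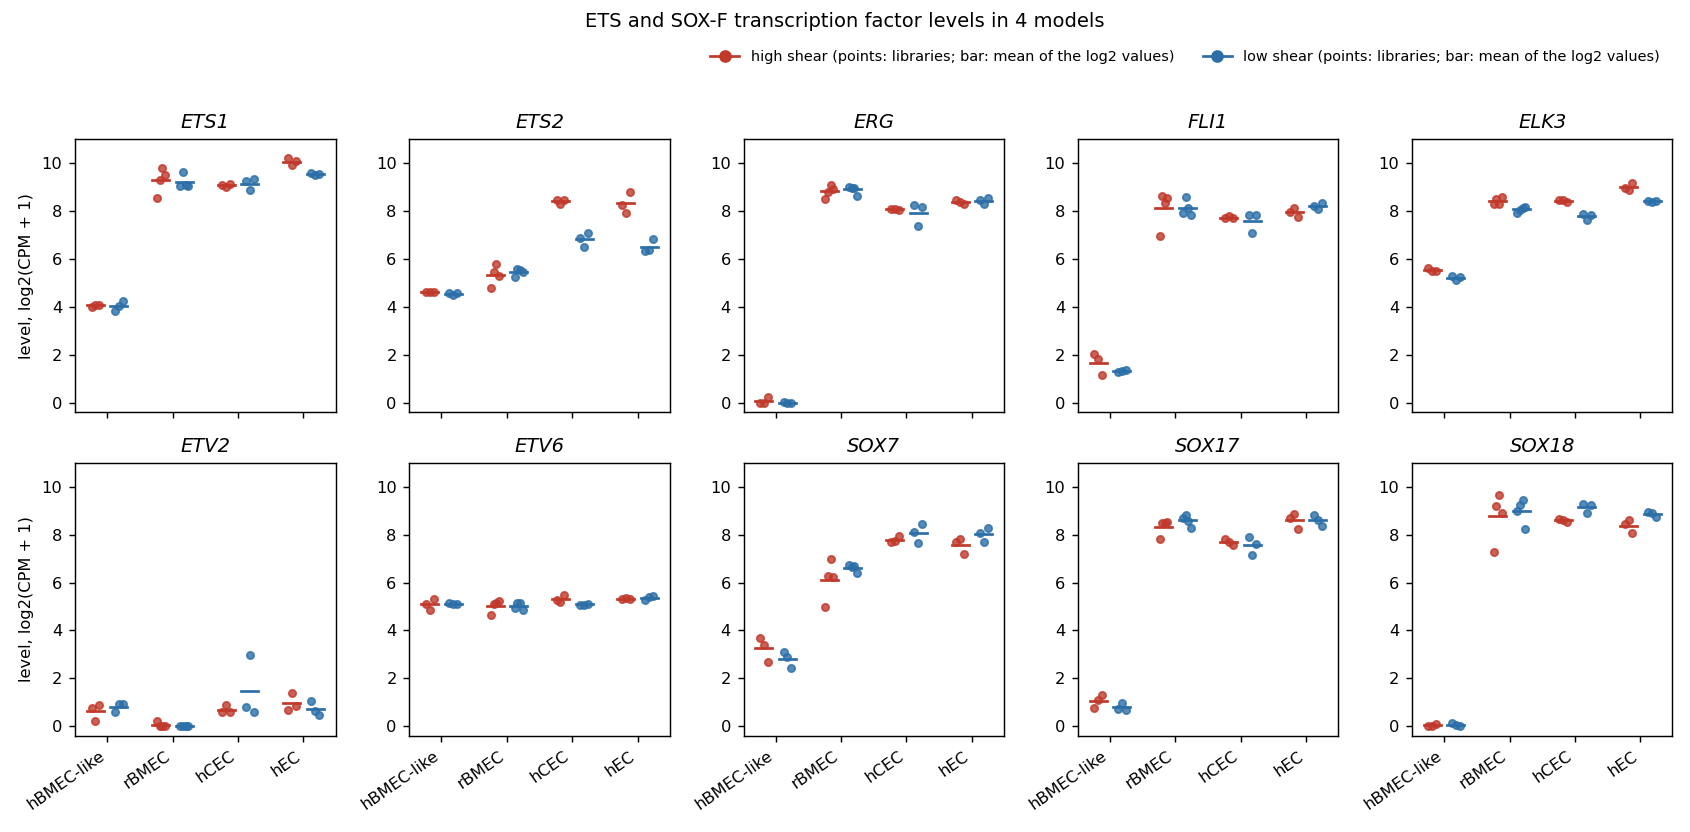
Level of each transcription factor, as log2(CPM + 1), by model (horizontal axis) and shear, with high shear left of low shear. Points are libraries and bars are means of the log2 values. *ERG* and *SOX18* lie near 0 in hBMEC-like cells alone, and *ETV6* lies at a similar height in all 4 models.

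Most other members were also lower in hBMEC-like cells than in hCECs and hECs, to very different degrees. Of the 10 members, 9 were called lower in hBMEC-like cells than in hECs at high shear and 9 at low shear, at a Benjamini–Hochberg adjusted p under 0.05 in the edgeR fit of 18 human libraries, the threshold used throughout. The background was high, since 54.7% (high shear) and 55.4% (low shear) of the 18712 genes tested were called. Against hCECs, 9 members were lower at high shear (57.1% of all genes called) and 8 at low shear (54.9%). *ETV2* was called in none of these and *ETV6* not against hCECs at low shear. *SOX17* fell to 0.682, 1.17 and 1.45 CPM in hBMEC-like cells at high shear, against 417, 460 and 302 CPM in hECs (log2 fold change −8.61 ± 0.348 SE, adjusted p = 2.34e-11). *FLI1* was at 3.15, 2.59 and 1.21 CPM in hBMEC-like cells, against 252, 279 and 216 CPM in hECs (−6.94 ± 0.329, adjusted p = 1.11e-10). These levels do not overlap, and both genes kept some reads in every hBMEC-like library.

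*ETS1*, *ELK3* and *ETS2* kept clear expression in hBMEC-like cells. *ETS1* had 15.1 to 16.2 CPM there at high shear, against 963 to 1180 CPM in hECs (log2 fold change −6.26 ± 0.201, adjusted p = 3.15e-12). *ELK3* had 44.7 to 48.8 CPM, against 474 to 570 CPM in hECs (−3.65 ± 0.137, adjusted p = 1.14e-11). *ELK3* also had the highest level per kilobase of the members in hBMEC-like cells. For *ETS2* the log2 fold change over hECs was −3.96 ± 0.240 at high shear (adjusted p = 1.66e-09) and −2.22 ± 0.224 at low shear (adjusted p = 4.90e-07). *SOX7* had 5.50 to 11.9 CPM in hBMEC-like cells at high shear, against 143 to 226 CPM in hECs. *SOX7* shares exon sequence on the same strand with *PINX1*, which had 4914 reads in the 6 hBMEC-like libraries against 1435 for *SOX7*, so the *SOX7* level in these cells is uncertain. In hECs the figures were 3368 and 46735 reads.

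*ETV6* differed by much less, and *ETV2* was low in every model. *ETV6*, a repressor with broad expression, had 27.9 to 38.2 CPM in hBMEC-like cells at high shear, 24.2 to 36.5 in rBMECs, 35.7 to 43.2 in hCECs and 38.7 to 40.03 in hECs. At low shear it had 33.3 to 34.2 CPM in hBMEC-like cells, 27.9 to 34.7 in rBMECs, 32.6 to 33.5 in hCECs and 38.1 to 42.5 in hECs. With this scaling by model, the hBMEC-like libraries lay below the hEC libraries at both shear levels and overlapped those of rBMECs and hCECs. The overlap with hCECs depended on the scaling. With the human libraries scaled jointly, hBMEC-like cells had 25.9 to 35.8 CPM at high shear, against 38.4 to 45.8 in hCECs, without overlap. At low shear the joint values were 30.5 to 31.4 CPM, against 29.6 to 35.8 in hCECs, and overlapped. *ETV6* was called lower in hBMEC-like cells than in hECs (log2 fold change −0.40 at high and −0.44 at low shear). It was also called lower than in hCECs at high shear (−0.43). Leaving out any hBMEC-like replicate moved the median of all genes in these comparisons by 0.21 to 0.34, so the *ETV6* values without a replicate carry that shift. Without hBMEC-like replicate 2 they were −0.05 over hECs and 0.022 over hCECs at high shear, and −0.11 over hECs and 0.28 over hCECs at low shear, the last with adjusted p = 0.0443. *ETV2*, the embryonic starter of the lineage, was near the limit of detection everywhere, at 0.158 to 0.889 CPM in hBMEC-like cells, 0.510 to 6.87 in hCECs and 0.395 to 1.59 in hECs. The value of 6.87 CPM, from 77 reads, belonged to hCEC low-shear replicate 2. In rBMECs *Etv2* had 5 reads in high-shear replicate 1 and 0 in the other 7 libraries, where 3 reads over the 4 low-shear libraries would be 0.0234 CPM.

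Between the Wnt-activated hCECs and the hECs the members differed less. 3 of 10 were called at high shear (14.1% of all genes called) and 2 of 10 at low shear (11.6%), all of them lower in hCECs. *SOX17* had 222, 204 and 187 CPM in hCECs at high shear, against 417, 460 and 302 CPM in hECs, and 236, 141 and 193 CPM in hCECs at low shear, against 448, 390 and 326 CPM in hECs. The hCEC levels lay below every hEC level at both shear levels. The log2 fold change was −0.90 ± 0.240 at high shear (adjusted p = 0.0192) and −1.05 ± 0.241 at low shear (adjusted p = 0.0129). At low shear *SOX17* passed without hCEC replicate 2 (−0.82, adjusted p = 0.0109) but not without hEC replicate 1 (adjusted p = 0.0819) or 2 (0.0522), and at high shear it did not pass without hEC replicate 1 (0.0837), hEC replicate 2 (0.123) or hCEC replicate 3 (0.0853). *ELK3* was lower in hCECs, with log2 fold changes of −0.55 ± 0.123 at high shear (adjusted p = 0.00670) and −0.65 ± 0.124 at low shear (adjusted p = 0.00342). It passed without hCEC replicate 2 at both levels and missed the threshold at high shear without hEC replicate 3 (adjusted p = 0.0510) or with no filter on low counts (0.0682).

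*ETS1* differed between these models at high shear. It had 548, 509 and 556 CPM in hCECs, against 1180, 963 and 1092 CPM in hECs, a log2 fold change of −0.96 ± 0.161 (adjusted p = 8.21e-04). At low shear the hCEC values of 606, 468 and 640 CPM, against 771, 733 and 746 CPM in hECs, were also lower in every library, with −0.42 ± 0.160 (adjusted p = 0.0879). Without hCEC replicate 3 the low-shear difference passed (−0.56, adjusted p = 0.0424), and without hCEC replicate 2, which holds the lowest of these values, it was −0.23 (adjusted p = 0.173). *ERG*, *FLI1*, *ETS2*, *ETV2*, *ETV6*, *SOX7* and *SOX18* were not called between hCECs and hECs at either shear level. With only the 2 groups compared, *ELK3* (adjusted p = 0.0654) and *SOX17* (0.0678) missed the threshold at low shear. Among the 22 other endothelial transcription factors set beside them, 4 were higher and 4 lower in hCECs at high shear and 3 and 7 at low shear, beside the same 14.1% and 11.6% of all genes.

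Levels of different genes were compared per kilobase of merged exons. In the 3 endothelial models *SOX18* stood first in the order of mean levels in every group. This order depends on the length used. By the longest transcript (5238 bases for *ETS1*, against 6068 of merged exons), *ETS1* came first in hECs at high shear. At low shear *SOX18* had 324 ± 103 CPM per kilobase of merged exons in rBMECs (SD, n = 4), 303 ± 42.5 in hCECs and 248 ± 18.04 in hECs (SD, n = 3 each). Its range did not overlap that of the next member. In rBMECs the next were *Erg* at 120 ± 13.4, *Sox17* at 111 ± 17.3 and *Ets1* at 110 ± 23.2 CPM per kilobase, whose ranges overlapped. In hCECs *ETS1* (94.2 ± 15.01), *SOX7* (85.2 ± 23.5) and *SOX17* (81.0 ± 20.3) overlapped in the same way. In hECs *SOX17* (165 ± 25.9) and *ETS1* (124 ± 3.17) came next, each apart from its neighbour. At high shear the first 3 in hECs, *SOX18* (179 ± 33.6), *ETS1* (178 ± 18.03) and *SOX17* (167 ± 34.9), could not be ordered. In hBMEC-like cells *ELK3* came first, at 10.4 ± 0.518 CPM per kilobase at high shear and 8.23 ± 0.481 at low shear.

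In GENCODE release 44 on GRCh38, *ERG* spans 38380027 to 38661780 on the minus strand of chromosome 21, with *ETS2* beyond its start on the plus strand, and *ETS1* spans 128458761 to 128587558 on the minus strand of chromosome 11, with *FLI1* at 128686535 to 128813267 on the plus strand. The paralogs *ERG* and *FLI1* stood in similar ratios in hCECs and hECs. *ERG* over *FLI1*, per kilobase, was 0.854 ± 0.0221 at high shear, against 0.852 ± 0.0290 at low shear in hCECs, and 0.895 ± 0.0965 against 0.781 ± 0.0183 in hECs (SD, n = 3 each). In rBMECs it was 7.96 ± 3.72 at high and 7.80 ± 1.54 at low shear (SD, n = 4 each), or 6.17 and 7.20 without replicate 1, but the rat annotation gives *Fli1* 18005 bases of exon, against 5104 in human, so the rat ratio depends on that length. Before division by length, *Erg* had 365 to 551 CPM and *Fli1* 123 to 394 CPM in rBMECs at high shear. The human ratios depend on length as well. Human *ERG* has 7688 bases of merged exons and 5034 in its longest transcript, and *FLI1* has 5104 and 5370. Undivided means of *ERG* and *FLI1* at high shear were 333 and 249 CPM in hECs and 270 and 210 CPM in hCECs. *FLI1* overlaps the antisense RNA *SENCR*, which had 1343 reads against 55932 for *FLI1* in the 6 hEC libraries. RNAs annotated on the opposite strand that were not analysed here also share exon sequence with *ETS2*, *ELK3* and *FLI1*. Whether reads were counted by strand is not given in the sources used here.

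The SOX-F make-up differed in the same models. *SOX17* made up 23.9% ± 1.34 of the summed SOX-F level per kilobase in hCECs at high shear and 17.1% ± 2.03 at low shear, against 41.2% ± 0.322 and 33.3% ± 2.94 in hECs (SD, n = 3 each). These shares did not overlap between hCECs and hECs. *SOX18* made up 57.3% ± 1.28 and 64.9% ± 2.45 in hCECs, against 44.2% ± 0.791 and 50.2% ± 2.21 in hECs. Its share at high shear lay below that at low shear in every library of both models. Without replicate 2, the hCEC means at low shear were 17.7% for *SOX17* and 63.5% for *SOX18*. In rBMECs *Sox18* made up 69.6% ± 9.55 at high and 68.7% ± 5.65 at low shear (SD, n = 4 each), or 74.02% and 69.1% without replicate 1, and *Sox7* 8.43% or less in any library.

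**Figure D2:**
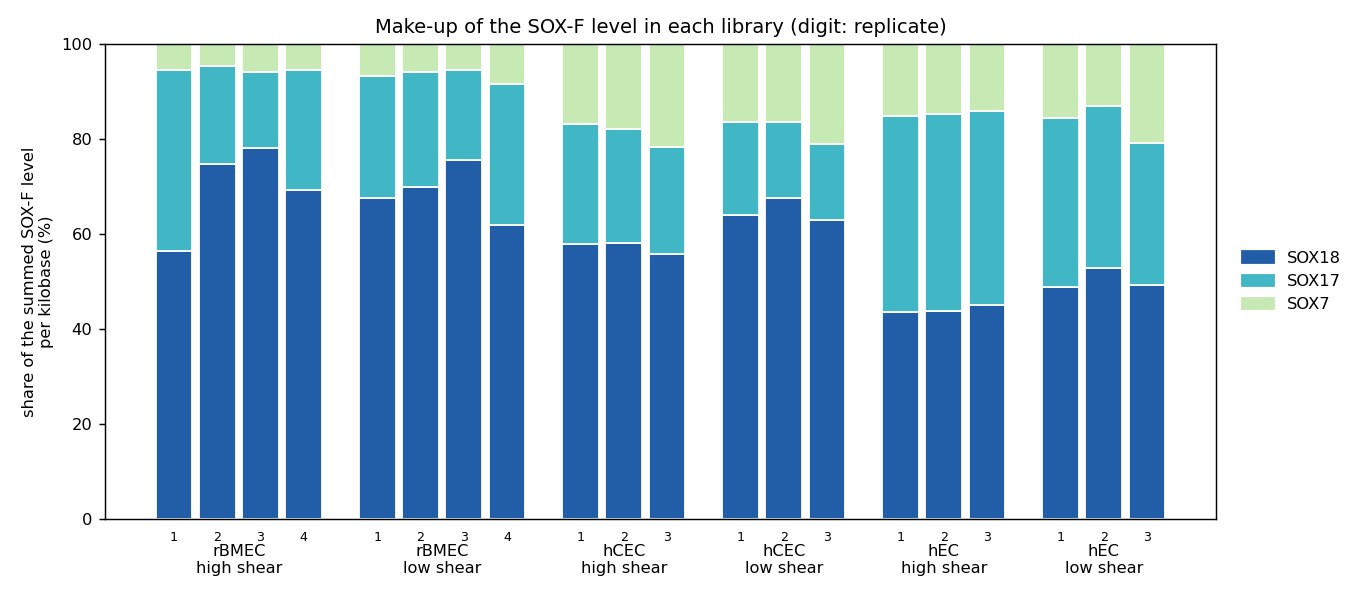
Share of *SOX18*, *SOX17* and *SOX7* in their summed level per kilobase (vertical axis, percent) in each library of rBMECs, hCECs and hECs, with high shear left of low shear. *SOX17* takes 22.6% to 25.3% in hCECs and 40.8% to 41.4% in hECs at high shear.

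Over the members, 2 of 8 tested were called with shear in hBMEC-like cells, where 15% of all genes were called, 0 of 9 in rBMECs (0.125%), 1 of 10 in hCECs (3.27%) and 4 of 10 in hECs (16.1%). These were *ELK3* and *SOX7* in hBMEC-like cells, *ETS2* in hCECs and *ETS1*, *ETS2*, *ELK3* and *SOX18* in hECs. The rBMEC count of 0 was the same with edgeR and DESeq2, and 1 member, *Elk3*, had an unadjusted p under 0.05. Without replicate 1, the hEC count was 2, and without replicate 2 it was 6 in hECs and 4 in hCECs, where 14.5% of all genes were then called. The calls over all genes in hECs also moved with the alternatives, from 819 to 3277, against 2494 in the main analysis. That range is not split by replicate left out, so the hEC counts of 2 and 6 are not read as results about the members. The rBMEC count without replicate 1 was also 0 (1.39% of all genes). The median log2 fold change of the members was 0.21 in hBMEC-like cells, −0.07 in rBMECs, 0.14 in hCECs and −0.02 in hECs. That of all genes was −0.01 in rBMECs, −0.02 in hCECs and nearer to 0 in both other models. In hECs, the summed markers of smooth muscle cells, pericytes and fibroblasts were 720, 1445 and 868 CPM at high shear, against 1103, 2048 and 2532 CPM at low shear, and the epithelial sum was 101 to 170 CPM, against 165 to 348 CPM. The summed leukocyte markers of hECs moved the other way, with 124, 140 and 48.7 CPM at high shear, against 31.6, 45.4 and 15.7 CPM at low shear. Only 2 or 3 of these 8 markers reached 1 CPM in a library. Among them *CD53* was at 37.9 to 127 CPM at high and 8.30 to 25.9 CPM at low shear. *CD14* fell, with 0 to 0.732 CPM at high and 0.949 to 6.29 CPM at low shear. In hBMEC-like cells the smooth muscle, pericyte and fibroblast sum was 8605 to 9090 CPM at high shear, against 7695 to 7993 CPM at low shear, and in hCECs the epithelial sum was 49.1 to 75.1 CPM, against 87.5 to 132 CPM. The part of these sums in the changes of the members and of the further lists was not tested.

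*ETS2* was the member that responded most to shear, and it was called in hCECs and in hECs. In hCECs it had 353, 315 and 355 CPM at high shear, against 117, 88.8 and 135 CPM at low shear. In hECs it had 301, 245 and 440 CPM at high shear, against 80.3, 81.8 and 114 CPM at low shear. In both models the lowest high-shear culture lay well above the highest low-shear culture, and the ratio within a pair was 2.62 to 3.55 in hCECs and 2.99 to 3.84 in hECs. *ETS2* rose by 1.60 ± 0.156 on the log2 scale in hCECs (3.04-fold, adjusted p = 0.00182) and by 1.81 ± 0.0918 in hECs (3.51-fold, adjusted p = 8.62e-05). It was called in both models under each of the 8 alternatives run, with log2 fold changes of 1.49 to 1.72 in hCECs and 1.75 to 1.92 in hECs, and in hCECs it was 1.49 without replicate 2. Per kilobase, the level of *ETS1* over that of *ETS2* was 1.90 ± 0.0382 at high shear, against 6.09 ± 0.354 at low shear in hCECs, and 4.14 ± 1.00 against 10.1 ± 1.96 in hECs (SD, n = 3 each).

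In hBMEC-like cells *ETS2* had 23.5, 23.9 and 23.8 CPM at high shear, against 23.0, 21.4 and 22.8 CPM at low shear, and in rBMECs *Ets2* had 26.9, 42.8, 53.8 and 38.3 CPM at high shear, against 36.7, 47.5, 45.1 and 43.5 CPM at low shear. Neither model showed a called change (0.08 ± 0.0780 and −0.13 ± 0.129, or −0.02 in rBMECs without replicate 1). The difference of the response itself was tested by the interaction of shear and model. It was −1.71 ± 0.194 for hBMEC-like cells minus hECs (adjusted p = 0.00151), −1.59 ± 0.195 for hBMEC-like cells minus hCECs (0.00215), −1.94 ± 0.180 for rBMECs minus hECs (0.00167) and −1.77 ± 0.222 for rBMECs minus hCECs (0.00693). *ETS2* was the only member called in these 4 comparisons, in which 3.19%, 4.39%, 4.01% and 1.55% of all genes were called, and it stayed called under every alternative run. The comparisons share the hEC or hCEC libraries. For hCECs minus hECs the *ETS2* difference was −0.12 ± 0.191 (adjusted p = 0.778), and 0 of 10 members were called by edgeR (1.88% of all genes), although 2 had an unadjusted p under 0.05 and DESeq2 called 1, *ETS1*.

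The promoter windows that RefSeq gives for GRCh38.p14 were searched for motif letters, and those of *ETS2* and *ELK3* are shown because these members were called with shear in more than 1 model. RefSeq windows of 250 bases before to 50 after a start matched *ETV6*, *ELK3*, *ETV2*, *ERG* and *ETS2*, 5 of the 10 members. These members had 10 windows in all. Any windows of *SOX7* and *SOX17* were left out of the search, so the count of 5 does not cover these genes. GGAA or its reverse complement TTCC occurred 4 and 7 times in the 2 windows of *ETS2*, 2 and 8 times in those of *ELK3*, 1 to 6 times in the 4 of *ERG* and 4 times in each of *ETV6* and *ETV2*. The core is common, since 95.5% of 35116 windows hold it, with a mean of 3.51 matches. ACAAT (or ATTGT), a core of SOX sites, was in 27.4% of windows and occurred 5 times in that of *ETV2*, 2 times in each of a pair of overlapping *ERG* windows, and in no *ETS2*, *ELK3* or *ETV6* window. CACCC (or GGGTG), a core of KLF sites, was in 59.9% of windows and occurred 2 and 3 times in the *ELK3* windows, 3 times in 1 of the *ERG* windows, 2 times in that of *ETV2*, 1 time in 1 of the *ETS2* windows and 0 times in that of *ETV6*. A match of letters is a description and not a binding site. The windows printed are those with the most GGAA or TTCC letters (in capitals) for each of the 2 genes, chr21:38805679-38805978 on the plus strand for *ETS2* and chr12:96255248-96255547 on the plus strand for *ELK3*.
ETS2: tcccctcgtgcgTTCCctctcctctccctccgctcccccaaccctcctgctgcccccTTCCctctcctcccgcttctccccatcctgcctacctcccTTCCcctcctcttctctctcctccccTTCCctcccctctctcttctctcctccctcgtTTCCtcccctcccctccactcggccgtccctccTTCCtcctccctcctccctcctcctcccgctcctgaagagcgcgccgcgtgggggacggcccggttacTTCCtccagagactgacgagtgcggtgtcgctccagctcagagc
ELK3: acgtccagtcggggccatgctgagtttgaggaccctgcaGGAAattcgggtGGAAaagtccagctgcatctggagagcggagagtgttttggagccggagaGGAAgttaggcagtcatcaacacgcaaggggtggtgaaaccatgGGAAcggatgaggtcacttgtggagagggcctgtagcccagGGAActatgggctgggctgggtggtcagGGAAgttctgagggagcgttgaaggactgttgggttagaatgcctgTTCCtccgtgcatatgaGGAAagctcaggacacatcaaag

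The *ETS2* window is a pyrimidine-rich stretch whose cores all read TTCC on the gene's own strand, whereas 7 of the 8 cores of the *ELK3* window read GGAA. *ETS2* spans 38805183 to 38824955 on the plus strand of chromosome 21 and *ELK3* spans 96194375 to 96269824 on the plus strand of chromosome 12. Both printed windows thus lie inside their genes. The windows over the first base of each gene, which are not printed, hold 4 cores for *ETS2* and 2 for *ELK3*.

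*ELK3* was higher at high than at low shear in every pair of every model, 13 of 13 pairs, by 1.12- to 1.79-fold. In hBMEC-like cells it had 48.8, 44.9 and 44.7 CPM at high shear, against 37.7, 33.9 and 37.4 CPM at low shear. In rBMECs it had 315, 362, 310 and 387 CPM, against 245, 265, 278 and 288 CPM. In each of these models the high-shear cultures all lay above the low-shear cultures. In hCECs *ELK3* had 351, 348 and 328 CPM at high shear, against 237, 195 and 230 CPM at low shear, and in hECs 501, 474 and 570 CPM, against 340, 332 and 347 CPM. *ELK3* was the single member whose groups were apart in all 4 models. Of all genes tested, every high-shear library lay above every low-shear library for 9.43% in hBMEC-like cells, 1.96% in rBMECs, 11.8% in hCECs and 15.1% in hECs.

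The test called *ELK3* in hBMEC-like cells (log2 fold change 0.34 ± 0.0623, adjusted p = 3.41e-04) and in hECs (0.60 ± 0.0764, adjusted p = 0.00245). In hCECs it was 0.64 ± 0.152 (adjusted p = 0.0742), and in rBMECs 0.35 ± 0.108 (adjusted p = 0.404). The hCEC difference passed without replicate 2 (0.54, adjusted p = 2.71e-04) and with DESeq2 (adjusted p = 1.23e-04). In rBMECs, *Elk3* was 0.35 without replicate 1 (adjusted p = 0.235). No difference of the *ELK3* response between models was called, the largest being −0.37 ± 0.180 for hBMEC-like cells minus hCECs (adjusted p = 0.318). In hBMEC-like cells the fit without the replicate block gave *ELK3* an adjusted p of 0.128.

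**Figure D3:**
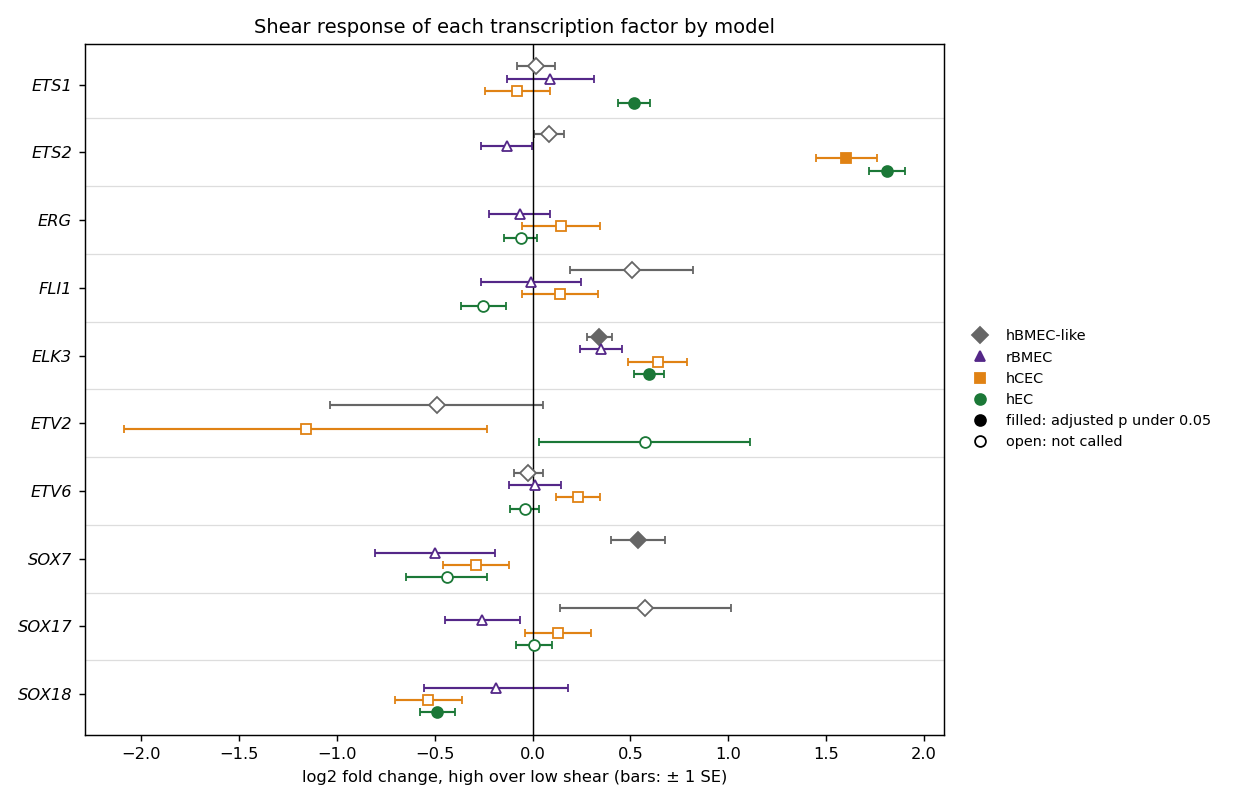
Log2 fold change of each transcription factor at high over low shear (horizontal axis, ± 1 SE) in the 4 models. Filled symbols passed at adjusted p under 0.05. *ETS2* stands at 1.60 and 1.81 in hCECs and hECs and near 0 in the others, and *ELK3* lies between 0.34 and 0.64 in all 4.

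*ETS1* rose with shear in hECs. It had 1180, 963 and 1092 CPM at high shear, against 771, 733 and 746 CPM at low shear, and was higher in 3 of 3 pairs. The groups did not overlap. The log2 fold change was 0.52 ± 0.0818 (1.43-fold, adjusted p = 0.00588), and without replicate 1 it was 0.47 with adjusted p = 0.105. In the other models *ETS1* showed no common direction, with 16.2 CPM or less in hBMEC-like cells at high shear (0.02 ± 0.0971), 378, 638, 898 and 729 CPM in rBMECs at high shear, against 535, 791, 549 and 529 CPM at low shear (0.09 ± 0.223, or 0.29 without replicate 1, adjusted p = 0.613), and −0.08 ± 0.167 in hCECs, or −0.17 without replicate 2 (adjusted p = 0.197). The *ETS1* response in hCECs minus that in hECs was −0.51 ± 0.194 (adjusted p = 0.240), and it passed without hCEC replicate 2 (−0.69, adjusted p = 0.00371). For hBMEC-like cells minus hECs it was −0.48 ± 0.199 (adjusted p = 0.303). That difference passed with library totals only (adjusted p = 0.0249) and with DESeq2 (adjusted p = 0.0325). For rBMECs minus hECs it was −0.43 ± 0.300 (adjusted p = 0.567).

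*SOX18* fell with shear in hECs. It had 349, 387 and 265 CPM at high shear, against 486, 478 and 424 CPM at low shear, and was lower in 3 of 3 pairs with no overlap of the groups. The log2 fold change was −0.49 ± 0.0896 (adjusted p = 0.0112), which did not pass without replicate 1 (−0.49, adjusted p = 0.119) or without the replicate block (adjusted p = 0.0941). In hCECs *SOX18* had 403, 394 and 367 CPM at high shear, against 616, 473 and 605 CPM at low shear. These groups were apart as well, with a log2 fold change of −0.53 ± 0.171 that was not called (adjusted p = 0.190). Without hCEC replicate 2 it passed (−0.67, adjusted p = 3.06e-05), and DESeq2 called it (adjusted p = 0.00606). In rBMECs *Sox18* ranged widely, with 153, 593, 815 and 471 CPM at high shear, against 512, 596, 689 and 300 CPM at low shear. The lowest value belonged to replicate 1, the library with the low endothelial marker sum, and the log2 fold change was −0.19 ± 0.370 with it and 0.30 without that replicate (adjusted p = 0.453).

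**Figure D4:**
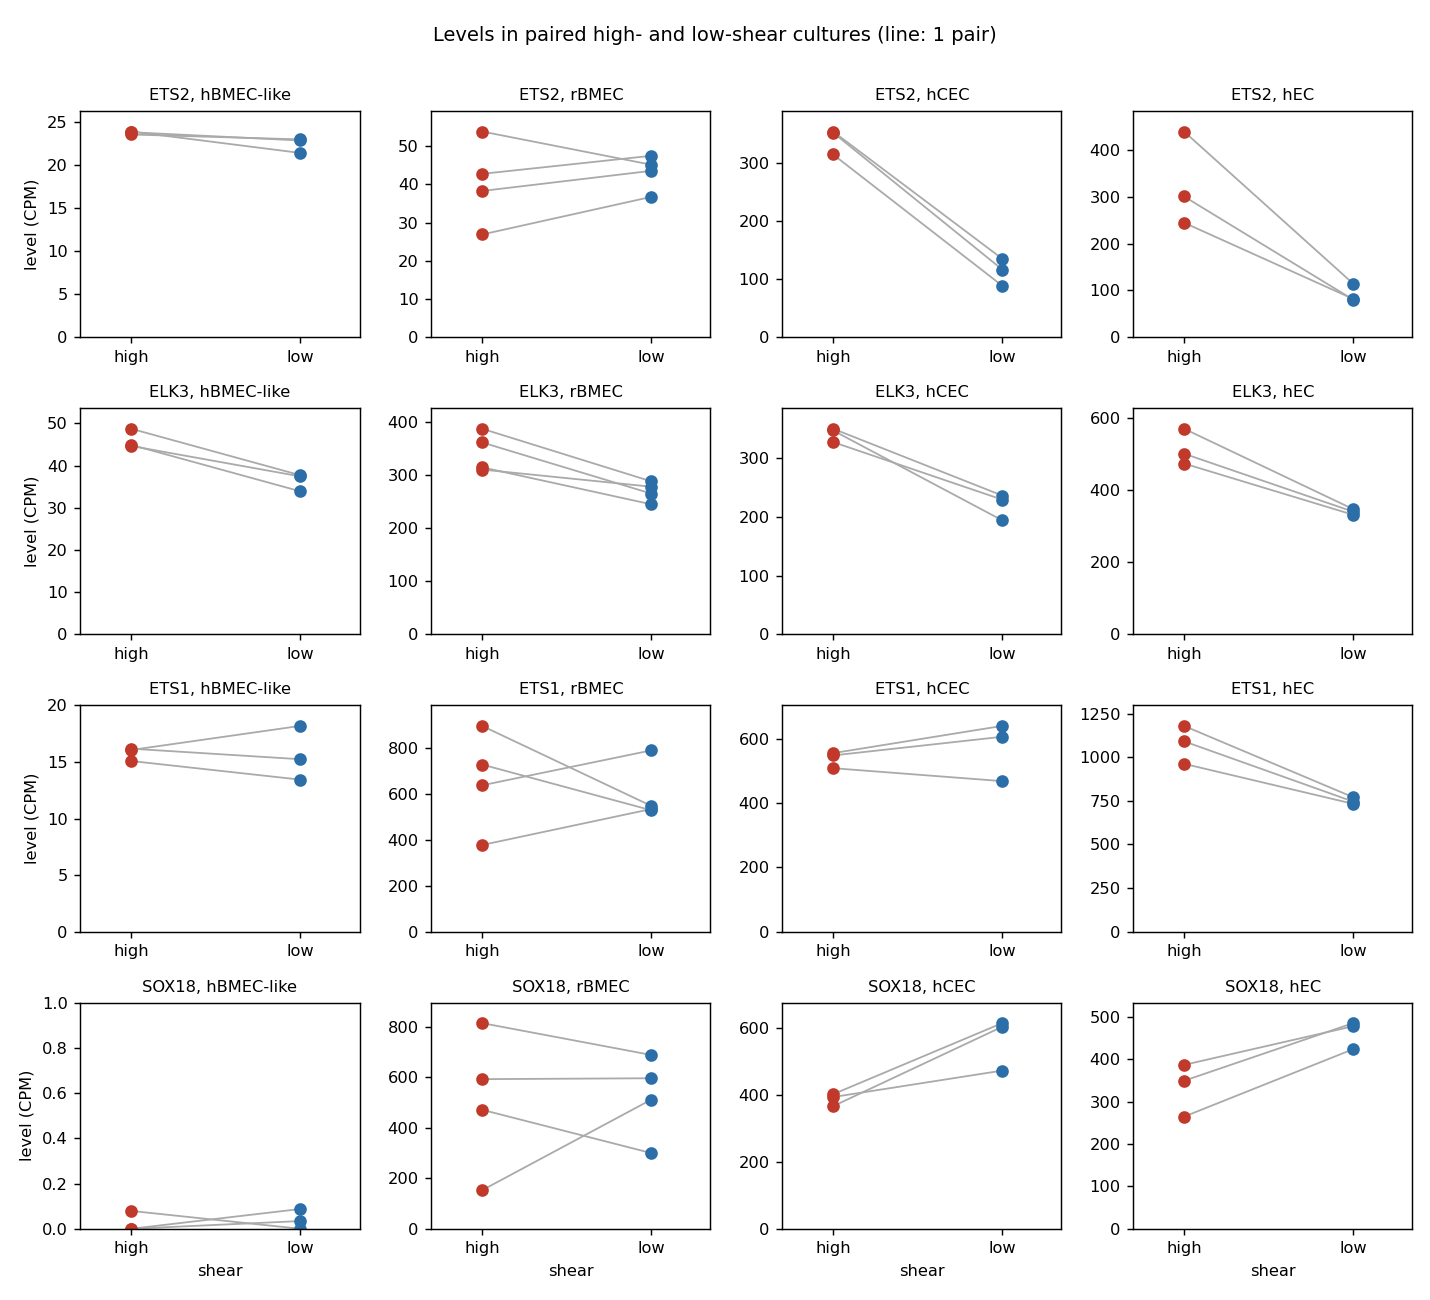
Levels (CPM, vertical axes from 0 and scaled per panel) of *ETS2*, *ELK3*, *ETS1* and *SOX18* in paired cultures, high shear at the left and low shear at the right of each panel. Each line is 1 pair. *ETS2* lines fall steeply to the right in hCECs and hECs and are nearly level in hBMEC-like cells, and *SOX18* lines climb to the right in hCECs and hECs.

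*SOX7*, which is active early in endothelial differentiation, gave values in both directions. In hBMEC-like cells it had 11.9, 9.51 and 5.50 CPM at high shear, against 7.49, 6.32 and 4.34 CPM at low shear, higher in 3 of 3 pairs although the groups overlapped. It was called there (0.54 ± 0.138, adjusted p = 0.00768). The call was lost without replicate 1 (adjusted p = 0.102) or 2 (0.0597) and without the replicate block (0.427), and the overlap with *PINX1* leaves these reads uncertain. In rBMECs *Sox7* had 30.1, 75.4, 124 and 74.5 CPM at high shear, against 104, 101, 101 and 82.8 CPM at low shear, and the lowest value was again that of replicate 1. Its log2 fold change was −0.50 ± 0.308 with that replicate and −0.09 without it (adjusted p = 0.855). In hCECs the log2 fold change was −0.29 ± 0.168 (adjusted p = 0.508), and −0.47 without replicate 2 (adjusted p = 0.00102). In hECs *SOX7* was −0.44 ± 0.207 (adjusted p = 0.216), and without replicate 2 it was −0.74 (adjusted p = 0.0143).

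*SOX17* showed no called response to shear. Its log2 fold change was 0.58 ± 0.438 in hBMEC-like cells, at 0.594 to 1.45 CPM, −0.26 ± 0.192 in rBMECs, 0.13 ± 0.169 in hCECs and 0.01 ± 0.0917 in hECs. In rBMECs *Sox17* had 223, 355, 361 and 373 CPM at high shear, against 418, 451, 374 and 311 CPM at low shear, and without replicate 1 the value was −0.04. In hCECs it was −0.07 without replicate 2.

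*ERG* and *FLI1*, the factors that maintain endothelial identity, were not called with shear in any model in which they were tested. *ERG* and *SOX18* were too low to be tested with shear in hBMEC-like cells, as was *Etv2* in rBMECs. *ERG* had 271, 273 and 267 CPM in hCECs at high shear, against 302, 167 and 288 CPM at low shear, the value of 167 being that of replicate 2. In hECs *ERG* had 349, 332 and 318 CPM at high shear, against 354, 313 and 376 CPM at low shear. Its log2 fold change was −0.07 ± 0.157 in rBMECs, or 0.086 without replicate 1, 0.14 ± 0.200 in hCECs and −0.06 ± 0.0845 in hECs, and −0.13 in hCECs without replicate 2. *FLI1* had 252, 279 and 216 CPM in hECs at high shear, against 294, 272 and 321 CPM at low shear (−0.25 ± 0.115, adjusted p = 0.202). Without replicate 2 this was −0.40 with adjusted p = 0.0426. *FLI1* was at 0.51 ± 0.314 in hBMEC-like cells and 0.14 ± 0.195 in hCECs, or −0.13 without replicate 2, and *Fli1* at −0.01 ± 0.254 in rBMECs, or 0.31 without replicate 1 (adjusted p = 0.425). *ETV6* lay between −0.04 and 0.23, with 0.29 in hCECs without replicate 2 and 0.12 in rBMECs without replicate 1, and *ETV2* had SEs of 0.538 or more where it was tested, with −0.26 in hCECs without replicate 2.

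Of the 21 other ETS genes listed, 12 were tested in hECs, where 16.1% of all genes were called with shear, and 1 of them, *ELK4*, a ternary complex factor like *ELK3*, fell to 78.4 ± 7.62 CPM at high shear, against 104 ± 6.64 CPM at low shear (log2 fold change −0.41 ± 0.0661, adjusted p = 0.00633). In hCECs (3.27% of all genes) 1 of 11 was called, *ETV4* of the PEA3 group, at 77.1 ± 15.9 against 47.6 ± 8.48 CPM (0.69 ± 0.111, adjusted p = 0.0163), and 2 of 11 without replicate 2 (14.5% of all genes). In rBMECs (0.125%) 0 of 10 was called by edgeR, with or without replicate 1, with 1 at an unadjusted p under 0.05. Among 13 tested in hBMEC-like cells, where 15% of all genes were called, 4 rose and 2 fell, including *ETV1* (0.69 ± 0.0939) and *ETV5* (0.85 ± 0.149), which rose, and *ELF3*, an epithelial ETS factor, which fell (−0.36 ± 0.0596). The median log2 fold change of this list was 0.11 in hBMEC-like cells, −0.01 in rBMECs, 0.08 in hCECs and −0.04 in hECs. Of 17 other SOX genes, hBMEC-like cells had 2 higher and 3 lower of 10 tested, with *SOX9* and *SOX15* higher and *SOX12* and *SOX11* lower, 0 of 6 in rBMECs and 0 of 8 in hCECs were called by edgeR (1 and 2 at an unadjusted p under 0.05), with 2 of 8 called in hCECs without replicate 2, and in hECs *SOX11* rose (0.31 ± 0.0740) and *SOX9* (−2.48 ± 0.467) and *SOX6* (−1.46 ± 0.384) fell among 10. *SOX9* in hECs was at 0.362 CPM at high shear, against 2.49 CPM at low shear.

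Of 22 other endothelial transcription factors listed, 8 rose and 5 fell among 21 tested in hECs (16.1% of all genes called), led by *NKX2-3* (2.72 ± 0.134) and *NR2F2*, the venous factor COUP-TFII (1.14 ± 0.0697), and on the other side by *FOXO1* (−0.55 ± 0.0704) and *HEY2*, an arterial Notch target (−1.57 ± 0.220). In hCECs 7 rose and 1 fell among 21 (3.27% of all genes), led by *LEF1*, a Wnt effector (1.94 ± 0.120), and *KLF2*, a flow-induced factor (2.13 ± 0.150), with *HEY1* lower (−1.08 ± 0.126). The median of the list was 0.59 in hCECs, against −0.02 for all genes. Without hCEC replicate 2, 13 rose and 5 fell, with 14.5% of all genes called. In rBMECs (0.125%) 1 of 20 was called, *Klf4*, at 122 ± 14.7 CPM against 45.8 ± 2.79 CPM (1.41 ± 0.109, adjusted p = 0.0200), and 3 of 20 without replicate 1 (1.39%). In hBMEC-like cells (15%) 4 of 16 rose, led by *EPAS1* (0.47 ± 0.0433) and *FOXO1* (0.26 ± 0.0563).

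Of 27 known targets of endothelial ETS and SOX-F factors listed, 6 rose and 6 fell in hECs, where 16.1% of all genes were called, among them *NOS3*, the endothelial nitric oxide synthase (0.75 ± 0.0789), and *ARHGEF15* (0.55 ± 0.0736) on the rising side and *ANGPT2*, the Tie2 ligand angiopoietin-2 (−3.12 ± 0.139), and *VWF* (−1.16 ± 0.103) on the falling side. In hCECs *NOS3* (1.22 ± 0.150) and *TAL1* (0.64 ± 0.114) rose and *ANGPT2* (−1.10 ± 0.181) fell, 3 of 27 beside 3.27% of all genes, whereas 6 rose and 8 fell without replicate 2 (14.5%). In rBMECs (0.125%) *Angpt2* was the 1 gene called of 25, at 420 ± 35.3 CPM at high shear, against 1074 ± 85.2 CPM at low shear (−1.35 ± 0.137, adjusted p = 0.0313), and without replicate 1 *Nos3* was called as well. In hBMEC-like cells (15%) *KDR* and *TIE1* rose and *TEK* fell, with 3 of 16 higher and 1 lower, and their mean levels were 34.0 CPM or less. All 27 were lower in hBMEC-like cells than in hCECs and than in hECs at both shear levels, in comparisons where 54.7% to 57.1% of all genes were called in either direction. The median log2 fold change of the targets with shear was 0.34 in hBMEC-like cells, 0.04 in rBMECs, 0.20 in hCECs and −0.04 in hECs.

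The genes whose pattern over the 18 human libraries was most like that of a member were found by the Pearson correlation of log2(CPM + 1), among 11406 genes. All these libraries share the gap between hBMEC-like cells and both other models, and the values are given with no test. *ERG* was most like *FGD5* (r = 0.999), *SOX18* most like *GIMAP8* (0.999) and *CLEC14A* (0.999), *SOX17* most like *PARVB* (0.998), *FLI1* most like *NOTCH1* (0.998), *ETS1* most like *ARHGEF15* (0.998) and *SOX7* most like *OSBPL10* (0.997). *ELK3*, which also varied with shear, was most like *KLF2* (0.996) and *F2RL3* (0.995), and *ETS2* most like *LYN* (0.990) and *TCN2* (0.989). *ETV6* reached 0.913 with *DNASE1L1* and *ETV2* 0.887 with an uncharacterized locus.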

How the data were processed

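RNA was sequenced from 6 libraries each of hBMEC-like cells, hCECs and hECs and 8 of rBMECs, with equal numbers at both shear levels. The values deposited by the authors are whole-number counts of reads per gene without normalization, made with STAR and featureCounts on hg38 for human cells. For rBMECs the paper names a rat genome, whereas the labels name hg38 for all. Of 43388 human and 33294 rat lines, 6 and 5 held no values and were left out. All 26 libraries were used, and no pair was identical.

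Counts were tested with edgeR 4.0.16 in R 4.3.3 (quasi-likelihood F test, TMM, filterByExpr with a minimum count of 10 and a minimum total of 15, Benjamini–Hochberg adjusted p under 0.05 over all genes kept). Shear was tested within each model with the replicate number as a block, since the study compared its cultures as pairs. Deviations of same-numbered libraries from their group means correlated at 0.261 to 0.525 in hBMEC-like cells and hECs, 0.092 to 0.204 in hCECs and 0.082 to 0.480 in rBMECs, where differently numbered libraries reached 0.458, so in hCECs and rBMECs the pairing rests on the study's design. The interaction of shear and model used the same blocks, with rat genes matched by symbol, and models were compared over the 18 human libraries without a block. CPM used the TMM factors of each model's own table, and SE is the absolute log2 fold change over the square root of F. With 3 or 4 cultures per group, p-values set a difference against the spread that remains between libraries in each fit. For comparisons of human models that spread was estimated over all 18 human libraries. Without a block, the high- and low-shear libraries of a pair were treated there as independent. DESeq2 1.42.0, other scalings, no filter, no block and each replicate left out were run as alternatives. Counts of the further lists and SOX-F shares without hCEC replicate 2 or rBMEC replicate 1 were added after the data were seen. The procedure was tested on simulated data. Promoter windows are those of RefSeq, and for the members those on chromosome 8 were left out.

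Named are all members, from each further list at most the 2 called genes of smallest p per model and direction, and the genes most alike. The members and lists were chosen with earlier results of these data known.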

Additional observations from a re-analysis of the deposited data

Results flagged for a closer look

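The shear response of *ETS2* differed between models by the interaction test. The log2 difference was −1.71 for hBMEC-like cells minus hECs, −1.59 for hBMEC-like cells minus hCECs, −1.94 for rBMECs minus hECs and −1.77 for rBMECs minus hCECs.

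Among 19 groups of 4 rBMEC libraries, 5 held 1 value far from the other 3 by Dixon's criterion. Independent normal groups would give about 1 in 20. These groups share the same 8 libraries, so the count cannot be judged by that rate. The *Etv2* group, with 3 values of 0, was bound to be flagged. *Sox17* was 223 CPM in high-shear replicate 1, against 355 to 373 CPM in the others, and *Etv2* was 0.153 CPM there, against 0. At low shear, *Ets1* was 791 CPM in replicate 2, against 529 to 549 CPM. In low-shear replicate 4 *Erg* was 402 CPM, against 500 to 520 CPM, and *Sox7* was 82.8 CPM, against 101 to 104 CPM.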

How the results depend on the processing

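Of 1591 recomputed member results, 1538 kept their direction or stayed uncalled and kept their side of the threshold, 25 lost a call, 26 gained one and 2 reversed. Both reversals were of *ETV6* in hBMEC-like cells over hCECs without hBMEC-like replicate 2, at 0.28 (low shear) and 0.022 (high shear), and with 1 replicate left out this value ranged from −0.19 to 0.28 at low and from −0.48 to 0.022 at high shear. Leaving out any hBMEC-like replicate moved the median of all genes in comparisons with that model by 0.21 to 0.34.

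The number of members called in hCECs with shear was 1, but 3 with library totals only and 3 with DESeq2. In hBMEC-like cells it was 2, and 0 without the replicate block (edgeR, with 1 member at an unadjusted p under 0.05). For hCECs minus hECs it was 0, and 1 with library totals only or DESeq2. For hBMEC-like cells minus hECs it was 1, but 2 with library totals only and 3 with DESeq2. For hCECs over hECs at low shear it was 2, but 4 with DESeq2 and 0 with only the 2 groups compared (edgeR, with 4 members at an unadjusted p under 0.05). With 1 replicate left out, the counts ranged from 2 to 6 in hECs, 1 to 4 in hCECs, 1 to 2 in hBMEC-like cells, 0 to 1 for hCECs minus hECs and 1 to 4 for hCECs over hECs at low shear. Except in hBMEC-like cells, where both calls were lost without the block, and for *SOX18* in hECs, the block changed no member call with shear. A block across hCECs and hECs added *ETV6* at low shear (−0.34, adjusted p = 0.0466). Over all genes, the calls with shear ranged from 7 to 2562 in hBMEC-like cells (2462 in the main analysis), 0 to 322 in rBMECs (17), 267 to 2161 in hCECs (490) and 819 to 3277 in hECs (2494). They ranged from 58 to 998 for hCECs minus hECs (351) and from 251 to 1249 for hBMEC-like cells minus hECs (597). For hCECs over hECs at low shear the range was 453 to 4687 (2164). With library totals only, 62.8% of the genes called between hCECs and hECs at low shear were higher in hCECs, against 50.6%, and 59.9% of those called between hBMEC-like cells and hCECs at high shear were higher in hBMEC-like cells, against 49.9%. For hCECs minus hECs this share was 35.6%, against 47.0%, and the median of all genes moved by −0.18.

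With longest transcripts in place of merged exons, 21 of 60 ranks of members within a human group changed. The joint scaling moved 16 of 60 mean levels by more than 1 SD. *ERG* and *SOX18* in hBMEC-like cells and *ETV2* are limited by counts of a few reads.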

Other observations

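*ETV2* had 77 reads in hCEC low-shear replicate 2, or 6.87 CPM, against 15 to 24 reads in the other hCEC libraries. The same library reached 1 CPM for 10 of 10 epithelial, 8 of 8 neural and 7 of 8 leukocyte markers. Its neural sum of 165 CPM lay within the range of the other hCEC libraries.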
